A study of Mus musculus with 9 samples.

Results

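Lysosomal genes and the TFE transcription factors that regulate them were followed through 9 RNA sequencing libraries of mouse spleen. The 37 genes were chosen by function from the 21965 gene identifiers counted, and all 37 were found. They comprised 3 TFE factors, 8 lysosomal membrane proteins, 9 proteases, 7 glycosidases, 6 proteins of lipid handling and their cofactors, and 4 proton pump proteins. The rule names no measured value, but the genes were picked out with the expression levels and fold changes of these same libraries known. Counts over it are therefore descriptions, and 34 of the 37 had enough counts to be tested.

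The libraries came from mice 16 weeks of age in 3 groups of 3. BWF1 females and BWF1 males are the F1 cross of NZB and NZW, a strain combination known for spontaneous lupus that is more severe in females, and BALB/c females are a strain not prone to lupus. No transgene, induced mutation or treatment is named for any group. Sex was compared within BWF1 and strain within females, whereas BWF1 males and BALB/c females differ in both, which cannot be told apart. The labels disagree on the material, since the study's own design text speaks of unsorted spleen cells and the sample labels of macrophages sorted by CD11b and F4/80.

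Lysosomes break down material delivered by endocytosis, phagocytosis and autophagy, with acid hydrolases that work in the low pH set by the vacuolar proton pump. TFEB, TFE3 and MITF are related basic helix-loop-helix leucine zipper proteins. When nutrient signalling through mTORC1 falls they move to the nucleus, bind E-box elements of the CLEAR type and raise the transcription of many lysosomal genes. In the spleen, macrophages carry large numbers of lysosomes and digest aged red cells and dying cells, while B cells and dendritic cells use lysosomal proteases to process antigen. These factors are controlled largely through where the protein sits in the cell, which RNA counts do not measure.

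Depth was low: between 458608 and 4305003 gene counts per library, of which 188382 to 2050636 remained outside Lars2, a single gene that took 42.3% to 76.6%. Of all alignments, 55.85% to 61.49% were not unique. The share in genes was 1.29% to 1.59% in BWF1 females, 1.41% to 2.05% in BWF1 males and 2.135% to 2.82% in BALB/c females. This share did not overlap between either BWF1 group and the BALB/c females, and its part in the differences from BALB/c was not tested. Levels are given as CPM, the usual scaling of counts by library total, here with TMM factors, and on this scale 3 counts in a library correspond to 0.625 to 6.62 CPM. Reads carried no molecular identifiers, so such limits cover counting error only. Markers of B cells, T cells, plasma cells, natural killer cells and red cells were present in every group. The 9 B cell markers summed to 2164 to 3247 CPM over the libraries, and the 17 macrophage markers to 214 to 622 CPM. Whichever label holds, the libraries thus held much RNA of cells other than macrophages. Itgam, which encodes CD11b, was at 0 counts in BWF1 females 1 and 3 and between 1.61 and 6.66 CPM in the other libraries. In such bulk samples, fewer cells of a type and less RNA per cell cannot be told apart. File names carry one tag on the 3 BALB/c libraries and replicate 2 of both BWF1 groups, and another on the other BWF1 libraries, and its meaning is not stated. P-values measure the spread between these 9 libraries.

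Tfe3 RNA was lowest in BWF1 females, intermediate in BWF1 males and highest in BALB/c females, and it fell in both BWF1 groups relative to BALB/c females. Tfe3 (ENSMUSG00000000134, mm10 chromosome X, 7762560 to 7775202, plus strand) encodes the TFE factor bound to E-boxes in immunoglobulin enhancers, from which its name comes. Its level was 11.0, 9.68 and 12.3 CPM in BWF1 females 1 to 3, 19.6, 18.5 and 18.5 CPM in BWF1 males 1 to 3, and 38.1, 45.3 and 39.7 CPM in BALB/c females 1 to 3. No library of one group overlapped another group in level. Against BALB/c females, the log2 fold change in BWF1 females was −1.90 (SE 0.28; adjusted p = 0.000122 by edgeR), a level 3.73-fold higher in BALB/c. In BWF1 males it was −1.13 (SE 0.24; adjusted p = 0.00614 by edgeR), or 2.18-fold. BWF1 females and BWF1 males differed by −0.77 (SE 0.29), which did not pass the test (edgeR adjusted p = 0.174).

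These levels rest on few reads. Tfe3 had 5, 6 and 6 counts in the BWF1 females, 10, 18 and 89 in the BWF1 males and 53, 69 and 40 in the BALB/c females. The difference between BWF1 females and BALB/c females was called under all other settings tried. The difference between BWF1 males and BALB/c females was no longer called without BWF1 male 3 (edgeR adjusted p = 0.0535), without BALB/c female 2 (0.0676) or with the file name tag as a term (0.0531). Among the libraries with the tag that BALB/c carries, 1 BWF1 female stood at a log2 ratio of −1.98 to the 3 BALB/c females and 1 BWF1 male at −1.11. Of the 27 other counted genes within 250 kb of Tfe3, a window chosen after the values were seen, 12 were tested. By edgeR none of the 12 was called in any comparison, nor by DESeq2 or limma-voom, and 5, 1 and 2 had an unadjusted p under 0.05 between the BWF1 sexes, between the females of the 2 strains, and between BWF1 males and BALB/c, in that order. Over all tested genes that share was 16.4%, 16.9% and 16.3%.

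Tfeb did not follow Tfe3. Tfeb (ENSMUSG00000023990, mm10 chromosome 17, 47737030 to 47792419, plus strand) encodes the factor best known for inducing the lysosomal programme. Its level was 50.7, 51.6 and 67.8 CPM in BWF1 females, 66.7, 56.4 and 59.1 CPM in BWF1 males, and 33.8, 34.2 and 51.5 CPM in BALB/c females. The BWF1 sexes overlapped, BALB/c female 3 reached the range of the BWF1 females, and the BWF1 males all stood above the BALB/c females. The log2 fold change was −0.09 (SE 0.21; edgeR adjusted p = 0.880) between BWF1 females and males, with its sign turned to 0.11 where libraries were scaled by their size only. It was 0.52 (SE 0.22; adjusted p = 0.214) for BWF1 females and 0.61 (SE 0.21; adjusted p = 0.114) for BWF1 males, each against BALB/c females. The latter was called by limma-voom (adjusted p = 0.0263) and by edgeR without BALB/c female 3 (0.0484).

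Mitf (ENSMUSG00000035158), the melanocyte and myeloid member of the family, was barely detected. It had 0, 1 and 0 counts in the BWF1 females, 1, 1 and 10 in the BWF1 males and 3, 3 and 2 in the BALB/c females, and was not tested. Per kilobase of exon, Tfeb was the most abundant of the factors in every group, at 10.7 CPM per kilobase in BWF1 males and 7.03 in BALB/c, with BWF1 females between them. Tfe3 stood at 1.19 in BWF1 females, 2.04 in BWF1 males and 4.43 CPM per kilobase in BALB/c. The length used takes in every annotated exon base of a gene, 9261 for Tfe3 and 5669 for Tfeb, and can exceed that of a transcript. Before division by length, Tfe3 had a mean of 41.0 CPM and Tfeb of 39.8 CPM in BALB/c females. In both BWF1 groups Tfeb was the higher on either scale.

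**Figure D1:**
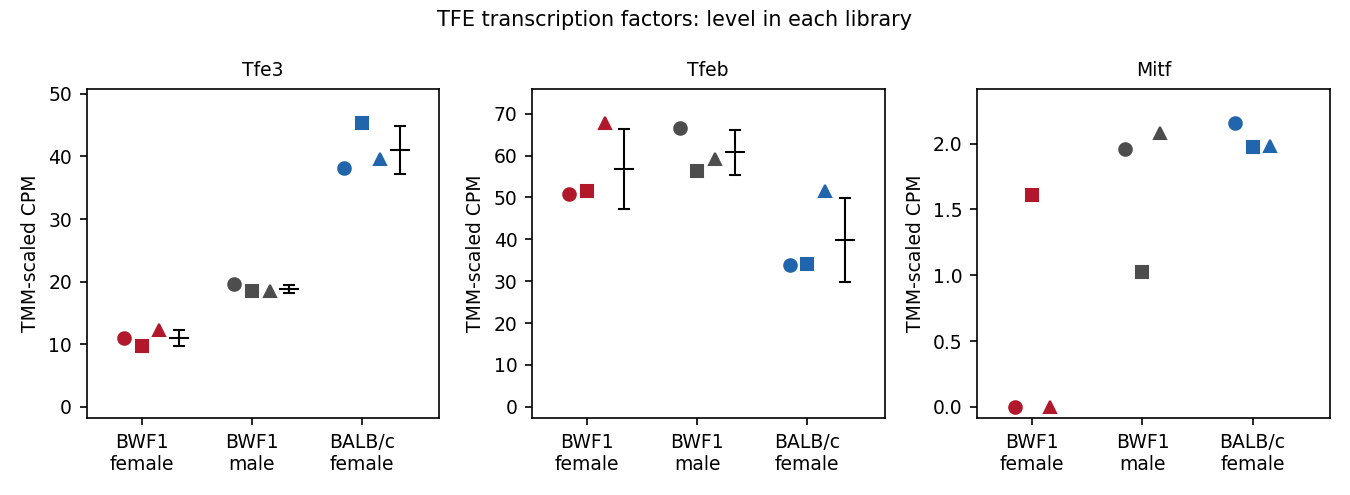
Level of Tfe3, Tfeb and Mitf in each library, in TMM-scaled CPM on the y axis, with the 3 groups on the x axis. Circles, squares and triangles are replicates 1, 2 and 3, and the bars beside them the mean ± SD (n = 3), left out for Mitf with its 21 counts in all. The Tfe3 groups form 3 separate levels, with BALB/c females at 38.1 CPM or more, while the Tfeb levels of BWF1 females and males overlap.

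Between the BWF1 sexes, RNA of 3 lysosomal proteins was lower in females: the protease cathepsin B, the protease cathepsin D and prosaposin. The 3 were the members called among 34 tested, where 1.23% of all 7719 tested genes were called lower. By edgeR 0 members were called higher, 0 with an unadjusted p under 0.05, and 0 by DESeq2 or limma-voom (background 0.959%). Over the 34 members, 32 had a negative log2 fold change, against 49.9% of all genes, and the members' median was −0.32. Groups did not overlap for 12 members, each lower in the females, where 9.68% of all genes were apart in that direction and 9.04% in the other. With scaling by library size only, none of the 3 was called (adjusted p of 0.780 for Ctsb, 0.643 for Ctsd and 0.926 for Psap). That scaling moved the median of all genes by 0.16 and left the members' median 0.30 below it. With Lars2 also left out at that scaling, the median of all genes was 0.06, Ctsb and Ctsd were called, and Psap was not. Over the 22 settings, the main fit included, Ctsb was called in 21, Ctsd in 19 and Psap in 14.

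Ctsb (ENSMUSG00000021939, mm10 chromosome 14, 63122462 to 63145923, plus strand) encodes cathepsin B, a cysteine protease of broad specificity. Its level was 123.5, 125.8 and 135.5 CPM in BWF1 females, 243, 222.5 and 223.8 CPM in BWF1 males, and 146.6, 184 and 155.6 CPM in BALB/c females. The 3 groups did not overlap, with BALB/c females between the BWF1 sexes. The log2 fold change of BWF1 females over males was −0.84 with an SE of 0.15 (edgeR adjusted p = 0.00249), the males being higher by 1.79-fold. Of its exon bases, 12.8% also lie in the antisense gene Fdft1, which had 75 counts in all libraries together.

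Ctsd (ENSMUSG00000007891, mm10 chromosome 7, 142375911 to 142388038, minus strand) encodes cathepsin D, the main aspartic protease of lysosomes. Its level was 44.1, 40.3 and 80.1 CPM in BWF1 females, 135, 96.4 and 105 CPM in BWF1 males, and 66.8, 69.0 and 78.3 CPM in BALB/c females. BWF1 males were above all other libraries, and BWF1 female 3 stood apart from the other BWF1 females, just above the BALB/c range. The log2 fold change of BWF1 females over males was −1.03 with an SE of 0.22 (edgeR adjusted p = 0.0117), the males being higher by 2.04-fold. The call was lost without BWF1 female 1 (adjusted p = 0.0617) or BWF1 female 2 (0.0636). Of its exon bases, 34.4% also lie in Gm49369 on the same strand, which had 0 counts.

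Psap (ENSMUSG00000004207, mm10 chromosome 10, 60277627 to 60302597, plus strand) encodes prosaposin, the precursor of the saposins that present sphingolipids to their hydrolases. Its level was 542.5, 608 and 562.6 CPM in BWF1 females, 918, 766 and 853 CPM in BWF1 males, and 736, 664 and 730.5 CPM in BALB/c females. The 3 groups were again separate, with BALB/c females in the middle. The log2 fold change of BWF1 females over males was −0.57 with an SE of 0.14 (edgeR adjusted p = 0.0282), the males being higher by 1.48-fold. The call was lost without BWF1 female 1 (adjusted p = 0.0849), female 2 (0.0502), female 3 (0.0681), male 1 (0.0554) or male 3 (0.113), and without Lars2 where libraries were scaled by size only (0.0564).

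**Figure D2:**
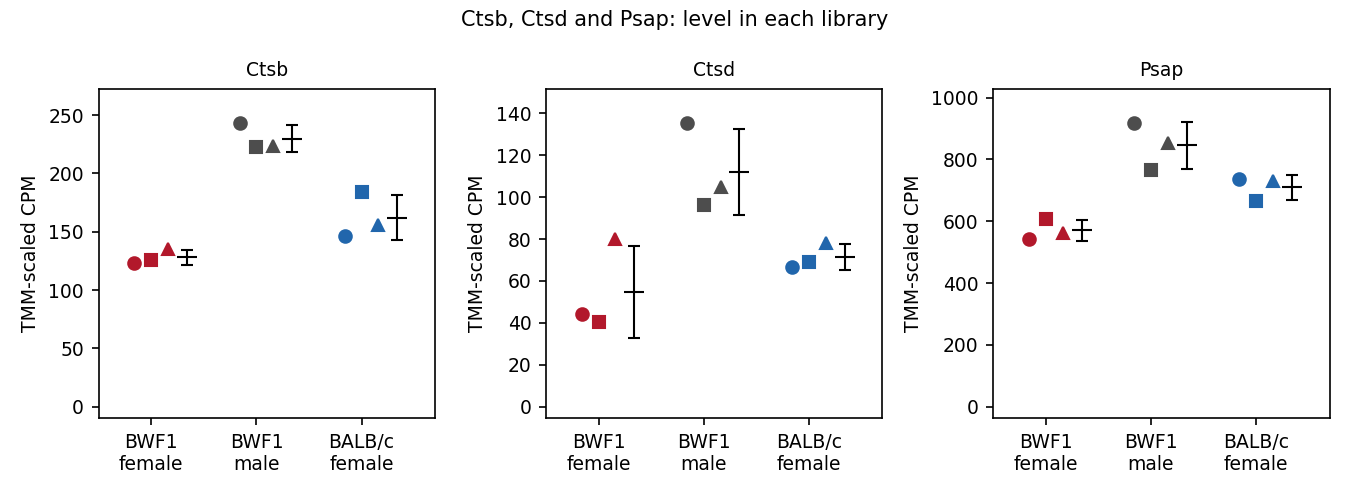
Level of Ctsb, Ctsd and Psap in each library, in TMM-scaled CPM on the y axis, with the 3 groups on the x axis. Circles, squares and triangles are replicates 1, 2 and 3, and bars the mean ± SD (n = 3). In each panel the BWF1 males lie above both female groups, and for Ctsd the BWF1 female at 80.1 CPM stands above the other BWF1 females.

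The other members showed smaller or less precise differences between the BWF1 sexes, and none of them passed the test. Among the 9 proteases, 2 fell, Ctsb and Ctsd, and the log2 fold change of the other 7 ran from −0.54 for cathepsin S (Ctss; SE 0.16; edgeR adjusted p = 0.0725), which cleaves the invariant chain of MHC class II, to −0.15 for cathepsin H (Ctsh; SE 0.18; adjusted p = 0.738). Of the 6 lipid handling genes, 1 fell, Psap, and the others ran from −0.75 for acid ceramidase (Asah1; SE 0.40; adjusted p = 0.360) to −0.18 for lysosomal acid lipase (Lipa; SE 0.27; adjusted p = 0.805). Each gene named here and in the next paragraph as an end of a range was chosen after its values were seen.

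Of the 7 membrane proteins tested, 0 were called by edgeR and 3 had an unadjusted p under 0.05, each lower in females (8.49% of all tested genes), with 0 called by DESeq2 or limma-voom. Their log2 fold changes ran from −0.95 for the macrophage glycoprotein Cd68 (SE 0.32; edgeR adjusted p = 0.128) to 0.04 for the lysosomal calcium channel Mcoln1 (SE 0.43; adjusted p = 0.977). Of the 6 glycosidases tested, 0 were called by any of the 3 tools and 1 had an unadjusted p under 0.05. They ran from −0.62 for acid alpha-glucosidase (Gaa; SE 0.24; adjusted p = 0.189), the glycogen hydrolase, to 0.04 for the beta-hexosaminidase subunit Hexa (SE 0.28; adjusted p = 0.962). The 4 proton pump genes had 0 calls by any of the 3 tools and 1 unadjusted p under 0.05. They ran from −0.58 for the accessory subunit Atp6ap1 (SE 0.21; adjusted p = 0.162) to −0.16 for the regulatory subunit Atp6v1h (SE 0.30; adjusted p = 0.848).

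The tag in the file names splits both BWF1 groups. Between 2 BWF1 females and 2 males of one tag, 32 of the 34 members had a negative log2 ratio, against 50.2% of all genes, with a median of −0.52. Between 1 female and 1 male of the other tag, 25 of 34 were negative, against 50.7% of all genes, with a median of −0.32. In that order, the log2 ratio was −0.85 and −0.82 for Ctsb, −0.94 and −1.24 for Ctsd, −0.68 and −0.33 for Psap, and −0.66 and −0.87 for Tfe3. These are values with no test.

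**Figure D3:**
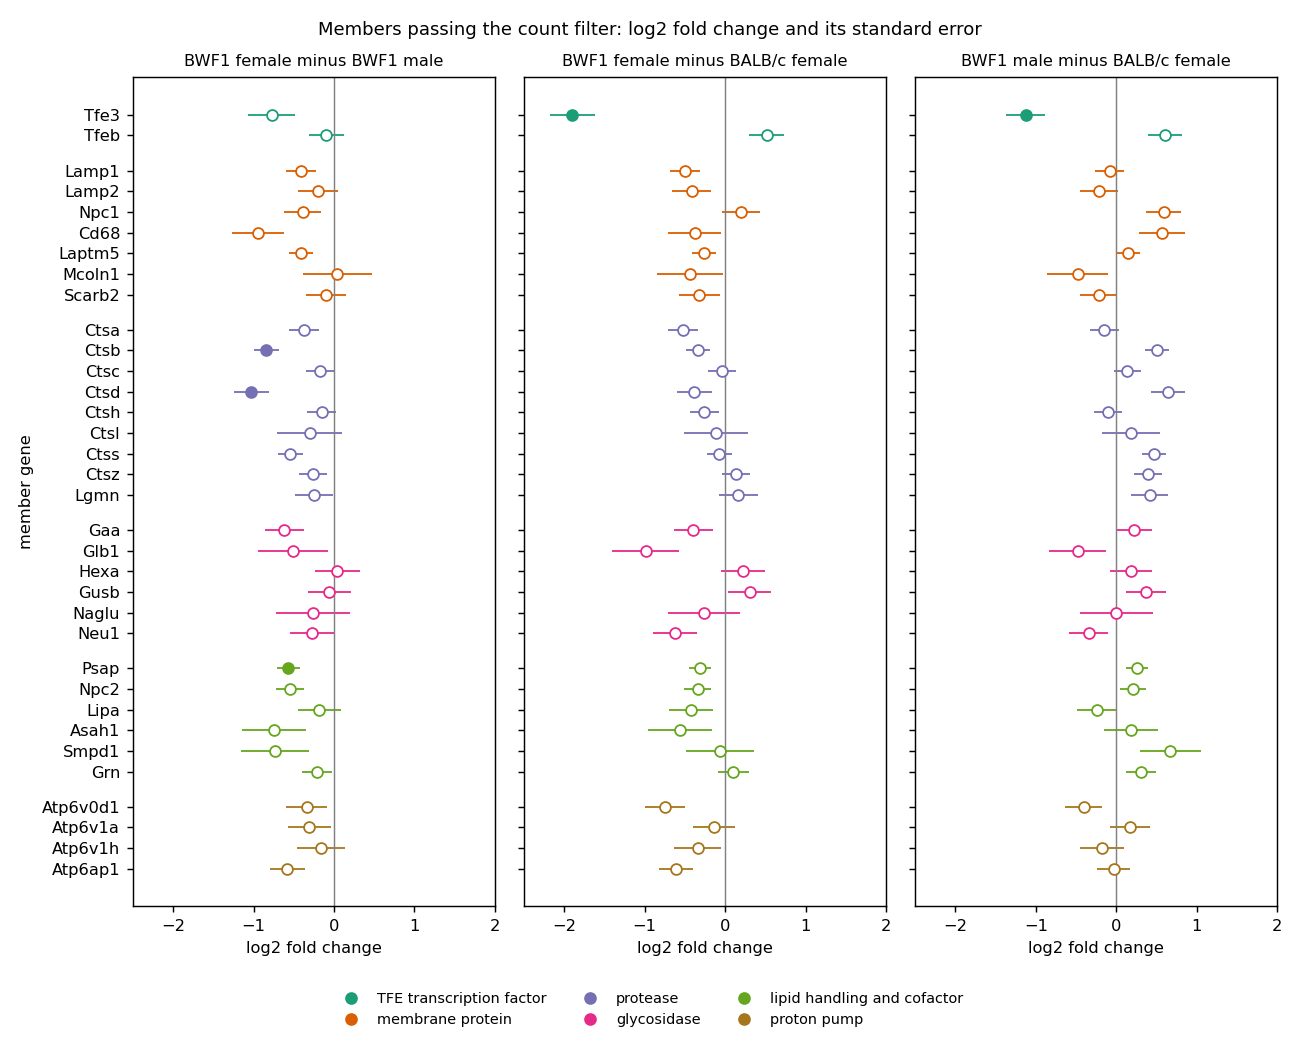
Log2 fold change (x axis) of the 34 tested members (y axis, coloured by role) in the 3 comparisons, with bars of 1 standard error. Filled points are called by edgeR and open points are not. Nearly all points lie left of 0 between BWF1 females and males, with Ctsb, Ctsd and Psap filled, and the one filled point in each comparison with BALB/c females is Tfe3. With scaling by library size only, the median between BWF1 males and BALB/c females turned from 0.18 to −0.32.

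The females of both strains, which share sex and age, were compared in the same model. Apart from Tfe3, no member was called. The count was 1 lower of 34, where 2.03% of all tested genes were called lower, and 0 higher by edgeR, DESeq2 or limma-voom (background 1.79%), with 1 higher at an unadjusted p under 0.05 (8.43% of all genes). Log2 fold changes were negative for 27 of 34 members, with a median of −0.33, against 50.2% of all genes. The groups did not overlap for 12 members that were lower in BWF1 females (10.9% of all genes) and for 1 that was higher, the beta-glucuronidase Gusb (10.3%). With the same BWF1 females, Ctsb stood at −0.34 (SE 0.15; edgeR adjusted p = 0.253), Ctsd at −0.38 (SE 0.22; adjusted p = 0.392) and Psap at −0.31 (SE 0.14; adjusted p = 0.238). Ctsd was called without BWF1 female 3 (adjusted p = 0.0421).

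The largest negative values among members not called were in the beta-galactosidase Glb1, with −0.99 (SE 0.42; edgeR adjusted p = 0.215), and in the pump subunit Atp6v0d1, with −0.75 (SE 0.25; adjusted p = 0.102), both named after their values were seen. Glb1 stood at 2.20, 11.3 and 12.3 CPM in BWF1 females, below 14.9 to 19.4 CPM in BALB/c females, with its lowest value under the level of 3 counts. Atp6v0d1 lay between 19.8 and 35.5 CPM in BWF1 females and between 38.1 and 49.6 CPM in BALB/c females. Neither pair of groups overlapped. With scaling by library size only, the median of all genes moved by −0.29 and the members' median stood 0.32 below it.

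BWF1 males were compared with BALB/c females last, and this comparison shares a group with each of the others. Tfe3 was again the one member called, lower in the males, where 1.85% of all tested genes were called lower. By edgeR 0 members were called higher (background 1.67%) and 6 had an unadjusted p under 0.05 in that direction (7.93% of all genes). DESeq2 called 0 higher and limma-voom 5. Of the 34 members, 21 had a positive and 13 a negative log2 fold change with a median of 0.18, which turned to −0.32 with scaling by library size only, still 0.12 above the median of all genes that this scaling moved by −0.44. The groups did not overlap for 12 members higher in the males (11.6% of all genes) and for 3 lower (11.9%).

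Of the 3 genes called between the BWF1 sexes, none passed the test here, but other settings called 2 of them. Ctsd stood at 0.64 (SE 0.21; edgeR adjusted p = 0.0905) and Ctsb at 0.50 (SE 0.15; adjusted p = 0.0590). With edgeR, both were called without Lars2 (adjusted p = 0.0479 for Ctsd and 0.0431 for Ctsb), with only the 2 groups in the fit (0.0274 and 0.0492), with its earlier quasi-likelihood method (0.0326 and 0.0338) and without BWF1 female 3 (0.0253 and 0.0388). Ctsd was also called with no filter (0.0442), and limma-voom called both (0.0212 and 0.0141). Psap stood at 0.25 (SE 0.14; adjusted p = 0.382). With library size only, Ctsb turned to −0.0069 and Psap to −0.24. Among the 9 proteases, 4 had an unadjusted p under 0.05 and a higher level in BWF1 males (7.93% of all genes), 0 were called by edgeR or DESeq2, and 3 were called by limma-voom. For 6 of the 9 the male libraries all lay above the BALB/c libraries (11.6% of all genes).

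Summed over the 34 lysosomal members, the level was 2452, 2436 and 2215 CPM in BWF1 females, 3456, 3034 and 3290 CPM in BWF1 males, and 2793, 2778 and 2967 CPM in BALB/c females. The 3 groups did not overlap. Psap alone held 571 ± 33.6, 846 ± 76.3 and 710 ± 39.9 CPM of it (mean ± SD, n = 3), and Laptm5, a lysosomal membrane protein of blood cells, 389 ± 36.2, 516 ± 60.5 and 466 ± 44.7 CPM. Per kilobase of exon, Psap, Ctss and Laptm5 were the most abundant members in all 3 groups, at 208, 106 and 103 CPM per kilobase in BWF1 females and 308, 155 and 136 in BWF1 males. In BALB/c females they stood at 259, 112 and 123 CPM per kilobase, with Laptm5 above Ctss. The 3 members below the count filter were Mitf, the galactosidase Gla with 68 counts and the tetraspanin Cd63 with 41.

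Levels of cell type markers also differed between the groups, and not all lists followed the order of the lysosomal sum. All 17 macrophage markers listed were counted and 12 were tested, and their summed level was 214 to 285 CPM in BWF1 females, 469 to 622 CPM in BWF1 males and 310 to 325 CPM in BALB/c females. Of the 12, 5 were called lower in BWF1 females than in males (1.23% of all genes), namely Csf1r, Vcam1, Mrc1, C1qa and C1qc. Hmox1 alone was called lower in the BWF1 than in the BALB/c females (2.03% of all genes), and 8 were called higher in BWF1 males than in BALB/c (1.67%). Marco (mean 0.278 against 5.9 CPM), Siglec1 (7.29 against 15.2 CPM), Spic, Hmox1 and Itgam had lower means in BWF1 males than in BALB/c. The other macrophage markers had higher means in BWF1 males. Of the lower ones only Hmox1 was tested, and it was not called in that comparison. Adgre1, which encodes F4/80, ranged over 12.3 to 17.6 CPM in BWF1 females, 11.3 to 20.8 CPM in BWF1 males and 5.26 to 8.62 CPM in BALB/c. The 11 monocyte and neutrophil markers summed to 376 to 669 CPM, 611 to 1187 CPM and 614 to 747 CPM in the same order. The 6 natural killer cell markers summed to 69.4 to 88.3 CPM, 247 to 259 CPM and 100.5 to 135 CPM, and the 9 T cell markers to 319 to 408 CPM, 559 to 623 CPM and 376 to 535 CPM. The 6 plasma cell markers summed to 563 to 831 CPM, 1255 to 2071 CPM and 681 to 824 CPM. The 9 B cell markers summed to 2164 to 2407 CPM, 2297 to 2890 CPM and 3203 to 3247 CPM. The 8 dendritic cell markers summed to 131 to 165 CPM, 171 to 190 CPM and 239 to 269.5 CPM, and the 6 stromal markers to 128 to 160 CPM, 102 to 132 CPM and 137 to 157 CPM. The 8 red cell markers counted varied within groups, at 807 to 2228 CPM, 149.9 to 1275 CPM and 1225 to 3702 CPM. Between the BWF1 sexes, 5 of 9 T cell, 4 of 6 natural killer, 1 of 6 plasma cell and 1 of 10 tested monocyte and neutrophil markers were called lower in females. Called higher in females were 1 red cell and 1 stromal marker. In BWF1 males relative to BALB/c, 4 natural killer, 4 plasma cell, 1 T cell and 1 neutrophil marker were called higher. Called lower there were 6 red cell, 1 B cell and 1 stromal marker. Between the females of the 2 strains, 4 B cell, 3 monocyte and neutrophil, 2 T cell, 1 dendritic cell and 1 natural killer cell marker were called lower in BWF1. No marker of these lists was at 0 in all libraries of a group, and the part of these cell types in the differences of the lysosomal members was not tested.

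**Figure D4:**
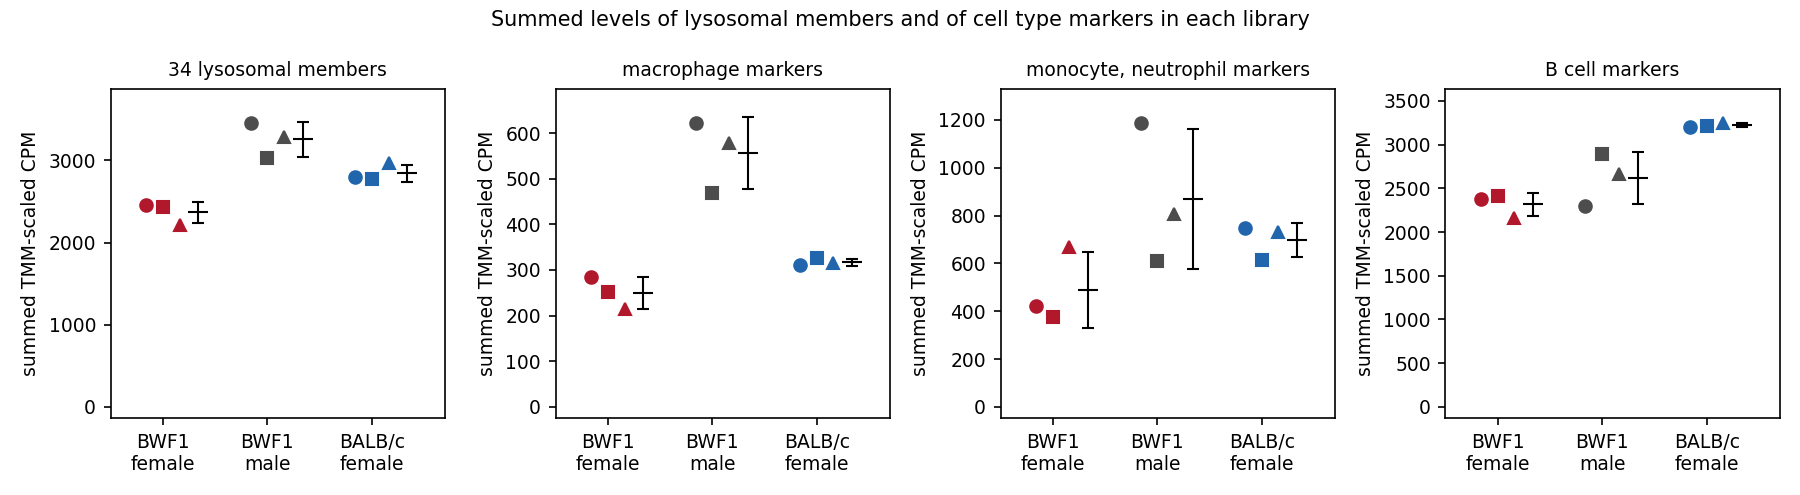
Summed TMM-scaled CPM (y axis) of the 34 lysosomal members and of markers of macrophages, of monocytes and neutrophils, and of B cells in each library, with the 3 groups on the x axis. Circles, squares and triangles are replicates 1, 2 and 3, and bars the mean ± SD (n = 3). The lysosomal and macrophage sums are both lowest in BWF1 females and highest in BWF1 males, whereas the B cell sum is highest in BALB/c females.

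Promoter sequences of the members were searched for the E-box that TFE factors bind, CACGTG, and for longer forms that contain it, among them TCACGTGA. RefSeq windows on GRCm38.p6 (250 bases before to 50 after a start site) existed for 32 of the 37 members, in 40 windows, and all forms read the same on both strands. CACGTG was found in 12 of the 40 windows (30%), against 7.15% of all 32851 windows of this length. TCACGTGA was found in 6 of the 40 (15%), against 0.974% of all windows. The form of 10 bases that adds G before it and C after it was in 0 of the 40, against 0.326% of all windows. The members were named as lysosomal genes, a class in which this element was defined, and a match is a stretch of letters and not a measured binding site. The sequences below are stretches around a box in Ctsd, the called member found with CACGTG, and in other members with the 8-base form or, for Lamp1, 4 boxes. Ctsd, Ctsa, Gla and Mcoln1 held 2 boxes each, of which a single box is shown. The box not shown was also of the 8-base form in Ctsa and Gla. They read 5′ to 3′ on the gene's strand, with CACGTG in capitals.
Ctsd, chr7:142387908-142387937, minus strand: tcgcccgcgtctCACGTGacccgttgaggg
Ctsa, chr2:164833749-164833778, plus strand: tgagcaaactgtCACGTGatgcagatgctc
Mcoln1, chr8:3500462-3500491, plus strand: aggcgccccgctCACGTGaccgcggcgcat
Atp6v0d1, chr8:105566050-105566079, minus strand: ccctactgcggtCACGTGagacgcggtgcg
Atp6v1a, chr16:44139373-44139402, minus strand: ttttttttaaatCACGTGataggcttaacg
Gla, chrX:134601182-134601211, minus strand: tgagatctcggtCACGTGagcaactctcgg
Lamp1, chr8:13159094-13159155, plus strand: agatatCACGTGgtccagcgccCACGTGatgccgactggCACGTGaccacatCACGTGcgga

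In Ctsd the box shown began 98 bases before a RefSeq start site, inside an exon of a longer GENCODE transcript of the gene. The Lamp1 stretch ran from 67 to 6 bases before the start site and held 4 boxes. In 33 of the 40 windows the bases just after the start site lay in a GENCODE transcript of the gene. The window of Atp6v0d1 was not among them, and its box began 3 bases before the start site and ran across it. Between the BWF1 sexes, Ctsd was lower in females as given above, and of the other members shown and tested none was called. Gla had too few counts for a test. Lamp1, the major lysosomal membrane glycoprotein, stood at −0.41 on the log2 scale (SE 0.19; edgeR adjusted p = 0.268) and Mcoln1 at 0.04 (SE 0.43; adjusted p = 0.977). Protective protein Ctsa stood at −0.37 (SE 0.18; adjusted p = 0.314), Atp6v0d1 at −0.34 (SE 0.26; adjusted p = 0.553) and the pump's catalytic subunit Atp6v1a at −0.31 (SE 0.26; adjusted p = 0.612). Psap has RefSeq windows and none of the letters searched was in them, and Ctsb had no window in the table.

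Other genes of the pathway were read from 6 lists with 166 genes, of which 135 were tested. Between the BWF1 sexes 1 was called lower (0.741%, against 1.23% of all genes), tartrate-resistant acid phosphatase (Acp5), a phosphatase of macrophages and osteoclasts. By edgeR 0 were called higher, 6 had an unadjusted p under 0.05 in that direction (7.92% of all genes), and DESeq2 called 0 and limma-voom 1. Acp5 stood at 86.0, 69.4 and 69.8 CPM in BWF1 females, 118, 151 and 120 CPM in BWF1 males, and 66.1, 49.9 and 63.4 CPM in BALB/c females. The BWF1 males lay above both other groups. The log2 fold change was −0.79 for BWF1 females against males (SE 0.18; edgeR adjusted p = 0.0196) and 1.11 for BWF1 males over BALB/c (SE 0.18; adjusted p = 0.000260). The first call was lost without BWF1 female 2 (0.0670) or 3 (0.0664) and without BWF1 male 2 (0.117) or 3 (0.0579), and both with scaling by library size only (0.827 and 0.278).

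Against BALB/c females, 5 of the 135 fell in BWF1 females (3.70%, against 2.03% of all genes) and 4 in BWF1 males (2.96%, against 1.85%), all among the 31 tested of the list of other hydrolases. Cathepsin E (Ctse), an aspartic protease of the endosomes, stood at 41.9, 37.1 and 78.0 CPM in BWF1 females, 66.7, 58.4 and 66.6 CPM in BWF1 males, and 121, 156 and 118 CPM in BALB/c females. All BALB/c libraries were above all BWF1 libraries. Its log2 fold change was −1.33 in BWF1 females (SE 0.22; edgeR adjusted p = 0.000516) and −1.04 in BWF1 males (SE 0.21; adjusted p = 0.00382), the latter lost without BALB/c female 2 (0.0510).

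Palmitoyl-protein thioesterase 1 (Ppt1), which removes fatty acids from proteins, stood at 35.3, 51.6 and 41.1 CPM in BWF1 females, 58.8, 49.2 and 47.5 CPM in BWF1 males, and 87.7, 82.1 and 81.3 CPM in BALB/c females. Naaa, an acid amidase of fatty acid ethanolamides, stood at 28.7, 14.5 and 18.5 CPM, 37.3, 19.5 and 28.5 CPM, and 66.1, 52.6 and 42.6 CPM in the same order. For both genes the BALB/c females were separate from both BWF1 groups. Ppt1 stood at −0.96 in BWF1 females (edgeR adjusted p = 0.00393) and −0.70 in males (0.0338), and Naaa at −1.41 in females (0.00343) and −0.95 in males (0.0374). Both male calls were lost without BWF1 male 2 (Ppt1 0.113, Naaa 0.180), BWF1 male 3 (0.188 and 0.127), BALB/c female 1 (0.118 and 0.211) or BALB/c female 2 (0.116 and 0.115). That of Ppt1 was also lost without BALB/c female 3 (0.0837), and with the file name tag as a term neither call of Ppt1 remained (0.0604 in females, 0.302 in males).

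The other called genes were each called against BALB/c females in 1 BWF1 group, and were also lower in the other group without passing the test there. In that other group, the log2 fold change was −0.33 for Gm2a in males (edgeR adjusted p = 0.280) and −0.38 for Tpp1 in males (0.420). For Dnase2a in females it was −0.86 (0.107). Of these 3, only Tpp1 overlapped the BALB/c range. The GM2 ganglioside activator (Gm2a) stood at 106, 118 and 111 CPM in BWF1 females and 193, 190 and 203 CPM in BALB/c females, which is −0.81 on the log2 scale (SE 0.16; edgeR adjusted p = 0.00272). Tripeptidyl peptidase Tpp1, named after its values were seen, stood at 22.1, 22.6 and 28.7 CPM in BWF1 females and 49.6, 45.3 and 49.6 CPM in BALB/c females, with −0.98 (SE 0.25; adjusted p = 0.0207). Gm2a was no longer called with scaling by library size only (0.0864), nor were Tpp1 (0.0974) and, in BWF1 females, Ppt1 (0.0596). The Tpp1 call was lost by DESeq2 (0.129), by limma-voom (0.0557), with the tag as a term (0.0805), and by edgeR without BWF1 female 1 (0.0775) or 2 (0.0764) or BALB/c female 1 (0.0695) or 3 (0.0708). The acid nuclease Dnase2a, which digests the DNA of engulfed cells, stood at 11.8, 10.3 and 17.3 CPM in BWF1 males and 31.6, 32.2 and 30.7 CPM in BALB/c females, with −1.18 (SE 0.27; adjusted p = 0.0116). It was lost by DESeq2 (0.0510) and by edgeR without BWF1 male 2 (0.0669) or BALB/c female 2 (0.0646).

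The remaining lists held 23 membrane proteins, 12 pump subunits, 20 genes of sorting to the lysosome, 19 of nutrient signalling upstream of the TFE factors and 30 of autophagy that were tested. In these lists 0 genes were called by edgeR or DESeq2 in any comparison. Limma-voom called 1 autophagy gene higher between the BWF1 sexes. In BWF1 males relative to BALB/c, it called 1 sorting gene higher and 1 gene each of the pump, nutrient signalling and autophagy lists lower. At an unadjusted p under 0.05 in BWF1 females relative to males, 6 membrane proteins and 2 pump subunits were lower, where 8.49% of all genes were. In the other direction, 4 autophagy genes, 1 pump subunit and 1 sorting gene were higher, where 7.92% of all genes were, and 0 nutrient signalling genes passed in either. The median log2 fold change of all 135 genes was −0.17 between the BWF1 sexes and −0.14 between BWF1 females and BALB/c females, each relative to a median of all genes of 0.00. The lists differed in this. Between the BWF1 sexes, the median was −0.29 for the other hydrolases, −0.32 for the membrane proteins and −0.19 for the pump subunits. It was −0.11 for sorting, 0.004 for nutrient signalling and −0.02 for autophagy.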

How the data were processed

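The authors deposited raw counts of reads for each gene, written by HTSeq per the file names and the summary lines at the end of each file. The submitters' processing notes name mm10, STAR 2.6 and FastQC 0.10.1. The annotation and strand setting of the counting are not given in the sources used here, so reads of overlapping genes cannot be told apart. Summary lines were left out of the gene counts and used only for the shares of alignments. Symbols, coordinates and exon lengths came from GENCODE M21 on mm10, which held 21939 of the 21965 identifiers. Of the 37 members all were matched, and of 166 other pathway genes all but Ifi30.

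Genes were kept by filterByExpr (edgeR 4.0.16, R 4.3.3) at a minimum count of 10, leaving 7719. Libraries were scaled with TMM factors (0.530 to 1.40). A quasi-likelihood model over all 9 libraries, without a replicate block, was tested for the 3 contrasts of groups, with Benjamini-Hochberg adjustment over all tested genes. The threshold for a call was an adjusted p of 0.05. Standard errors are the size of the log2 fold change divided by the root of F. The script was tested on simulated data with known changes. Over the 3 comparisons it recovered 47% to 61% of the 2-fold changes and at least 87% of the 4-fold changes. A member that was not called can therefore still differ. Alternatives included DESeq2 1.42.0, limma-voom (limma 3.58.1), other scalings and filters, no Lars2, the file name tag as a term and leaving out each library.

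The members and lists were chosen with earlier results of these data known. Values per library are given for the TFE factors and for every called member, and for the 3 called genes with the lowest p per direction and comparison in the other lists. Tpp1 falls outside this rule. Chi-square per degree of freedom between replicates without Lars2 ran from 1.23 to 2.60, so no library was a copy of another. Replicate numbers recur between groups, but deviations of same-numbered libraries correlated at −0.09 to 0.06 over 9 pairs, so the numbers were not used as pairs.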

Additional observations from a re-analysis of the deposited data

How the results depend on the processing

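Between the BWF1 sexes, scaling by library size only gave 0 lysosomal members, 0 other pathway genes and 59 genes in all, against 3, 1 and 169. It gave 2 pathway genes and 130 genes in all between the females of both strains (5 and 295) and 8 pathway genes between BWF1 males and BALB/c females (5). Of all calls, it split them into 45 higher and 14 lower between the BWF1 sexes (74 and 95), 23 and 107 for BWF1 females (138 and 157) and 26 and 248 for BWF1 males (129 and 143), each against BALB/c. Without Lars2 and with library size only, the first split was 141 and 73. Library size only also turned 3 values that had not passed the test: Tfeb to 0.11 between the BWF1 sexes, and Ctsb to −0.0069 and Psap to −0.24 between BWF1 males and BALB/c females.

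Between the BWF1 sexes, other pathway genes called (1) came to 2 without Lars2, with limma-voom, with the earlier quasi-likelihood method, without Lars2 and with library size only, or with the file name tag as a term, and to 3 with no filter. All genes called were 304 with no filter, 105 with DESeq2 and 98 with only the 2 groups in the fit. For BWF1 females against BALB/c females, the tag as a term gave 3 pathway genes and 160 genes in all, and DESeq2 169 genes. For BWF1 males against BALB/c females, members called (1) came to 3 without Lars2, 2 with no filter, 6 with limma-voom, 3 with the earlier method, 3 with only the 2 groups and 0 with the tag. Pathway genes (5) came to 9, 11, 9 and 8 without Lars2, with limma-voom, with the earlier method and with only the 2 groups, and to 10 without Lars2 and with library size only. All genes (272) came to 433 without Lars2, 510 with no filter, 650 with limma-voom, 484 with the earlier method, 436 without Lars2 and with library size only, and 153 with the tag. The earlier method and the combination of the Lars2 and library size settings were chosen after seeing the data. With library size only, the median log2 fold change of all genes was 0.16 between the BWF1 sexes. It was −0.29 for BWF1 females and −0.44 for BWF1 males, each against BALB/c females. With Lars2 also left out, these medians were 0.06, 0.02 and −0.04 in the same order. The cause of the shifts between settings was not tested.

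Leaving out each library in turn gave 1 to 3 members, 0 to 2 pathway genes and 58 to 198 genes between the BWF1 sexes. The 1 member came without BWF1 female 1 or 2, and the 58 genes without BWF1 male 3. The ranges were 1 to 2, 4 to 7 and 184 to 370 for BWF1 females against BALB/c females, with the highest member count without BWF1 female 2 or 3 and the lowest gene count without BALB/c female 1. They were 0 to 3, 1 to 8 and 119 to 393 for BWF1 males against BALB/c females, with 0 members without BWF1 male 3 or BALB/c female 2, 3 members without BWF1 female 3, and 119 genes without BALB/c female 2.

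With the replicate number as a block, 2, 1 and 1 members were called in the 3 comparisons, and 118, 255 and 240 genes. The member no longer called was Psap between the BWF1 sexes (adjusted p = 0.0514), and Ppt1 was lost between BWF1 males and BALB/c females (0.0523). The numbers do not pair the libraries: 1 of 9 libraries correlated best with a library of its own number. Depth limits the low members most. Tfe3 had 17 counts over the BWF1 females, and 3 members had too few counts for a test.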
